A study of Rattus norvegicus with 6 samples.

Results

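Rab proteins are small GTPases of the Ras superfamily that direct vesicle traffic. A Rab protein bound to GTP sits on a membrane and recruits effectors such as tethers, coiled-coil adaptors and motors, and hydrolysis of GTP ends that state, after which GDP dissociation inhibitors return the protein to the cytosol. In neurons the family serves synaptic vesicle release, the recycling of receptors and the supply of membrane to growing neurites, and some members are found mainly in brain while others are present in nearly every cell type.

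The Rab genes were followed in rat primary cortical cells that had received an expression vector for Math2, an older name of the neuronal basic helix-loop-helix transcription factor Neurod6, or a control vector. Both groups also carried a vector for a cytoplasmically truncated low-affinity nerve growth factor receptor, whose surface tag served to pull transfected cells out magnetically after 24 h, so all arrays describe tagged cells of a mixed culture and not one cell type. The strain, the age of the animals and the promoter of the vectors are not given in the labels, nor is it stated whether the numbered samples came from separate cultures. The p-values below therefore rest on variation among these arrays, which could be purely technical. There were 3 Math2 and 3 control arrays of the Affymetrix Rat Genome 230 2.0 type.

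Members were all probe sets whose single platform gene symbol is Rab plus a number with an optional letter, which gave 97 of 31099 probe sets, for 56 of 14217 genes named by 1 symbol. Symbols that run on, as those of Rab interactors do (13 probe sets), and 3 probe sets shared by symbols of several genes were left out. A probe set is a group of short oligonucleotides for 1 transcript, and its MAS5 signal is an intensity on a linear scale. Differences are Math2 minus control on the log2(signal + 7.42) scale, where the added constant damps dim signals. Of the 97 members, 75 probe sets for 48 genes passed a filter on mean signal and were tested with limma beside all 18625 probe sets that passed. The array medians ran from 102 to 120, and a signal near or under them may hold little but background, since no detection calls were used.

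The tested members whose 3 Math2 signals did not overlap the 3 control signals were Rab15, Rab3b and Rab40c. Their promoter windows from RefSeq (GRCr8) are shown because Math2 belongs to a factor class that binds E-boxes, the motif CANNTG. Each run covers 250 bases before and 50 after the annotated start, 5′ to 3′ as the table gives it, with every CANNTG in capitals. CANNTG reads the same on both strands. The windows lie at chr6:101257034-101257333 on the minus strand for Rab15, chr5:128858841-128859140 on the plus strand for Rab3b and chr10:15440610-15440909 on the minus strand for Rab40c.
Rab15: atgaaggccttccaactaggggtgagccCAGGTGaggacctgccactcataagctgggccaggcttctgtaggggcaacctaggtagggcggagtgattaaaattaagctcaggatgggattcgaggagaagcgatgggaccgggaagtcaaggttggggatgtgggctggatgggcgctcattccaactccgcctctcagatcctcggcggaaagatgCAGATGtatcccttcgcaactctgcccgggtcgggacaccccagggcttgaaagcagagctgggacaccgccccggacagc
Rab3b: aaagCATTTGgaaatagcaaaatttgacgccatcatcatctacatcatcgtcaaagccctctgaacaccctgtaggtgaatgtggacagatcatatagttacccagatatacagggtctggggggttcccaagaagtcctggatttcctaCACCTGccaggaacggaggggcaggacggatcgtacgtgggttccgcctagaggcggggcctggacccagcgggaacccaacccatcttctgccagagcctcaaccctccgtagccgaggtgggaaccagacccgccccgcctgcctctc
Rab40c: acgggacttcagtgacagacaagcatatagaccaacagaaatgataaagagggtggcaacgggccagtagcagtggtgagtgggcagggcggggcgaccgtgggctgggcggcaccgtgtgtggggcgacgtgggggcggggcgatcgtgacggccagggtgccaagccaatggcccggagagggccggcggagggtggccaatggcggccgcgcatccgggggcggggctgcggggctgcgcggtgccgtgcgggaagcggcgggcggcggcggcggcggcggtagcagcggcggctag

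The Rab15 window holds CAGGTG and CAGATG, at positions -222 and -31 from the start. The Rab3b window holds CATTTG and CACCTG, at -246 and -100, and the Rab40c window holds no CANNTG. The table holds 46 windows for 45 of the 56 Rab genes, Rab30 having more than 1, and 28 of them (60.9%) contain at least 1 CANNTG, against 72.1% of all 33469 windows of the same length in the table. The narrower motif CAGATG, read on both strands, is in 6 of the 46 Rab windows (13.0%) and in 16.6% of all windows. Among tested genes the median log2 difference was -0.048 for the 20 with a CANNTG and 0.083 for the 18 without. A match is a string of letters and was not tested for binding.

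Rab15, a brain-enriched GTPase of early and recycling endosomes, had the smallest unadjusted p of the family. Its probe set 1373646_at gave signals of 4.43, 43.1 and 61.4 on Math2 arrays 1, 2 and 3, against 127, 112 and 183 on control arrays 1, 2 and 3. All Math2 signals were thus below all control signals, and the gap was widest in the pair numbered 1. The log2 difference was -2.07 (SE 0.61, 95% interval -3.42 to -0.72), it was below 0 in 3 of 3 numbered pairs, and the exact permutation p was 0.1, the smallest that 3 against 3 arrays allow. It ranked 56th of all tested probe sets in limma's fit and did not pass, with an adjusted p of 1.00, or 0.235 with the replicate number as a block.

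That Rab15 probe set passed the filter through its control signals, since its mean log2 value of 6.15 lay just above the limit of 6.07 while the Math2 mean was 5.11. Leaving out any single control array took it below the limit. Such a passage through the control arrays alone held for 4 of the 75 tested members, the others being Rab3b and the dimmer probe sets of Rab27b and Rab5b, all lower in Math2 arrays. The other tested Rab15 probe set, 1397839_at, gave 75.3, 63.5 and 74.4 on Math2 arrays 1, 2 and 3 and 104, 52.7 and 61.9 on control arrays 1, 2 and 3. The groups overlapped there and the log2 difference was 0.017 (SE 0.38), which turned to -0.023 with quantile normalization. The third probe set, 1370758_at, stayed at or under 47.3 on every array and was not tested.

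Rab3b, a relative of the synaptic vesicle GTPase Rab3a, gave 40.5, 62.8 and 50.5 on Math2 arrays 1, 2 and 3, against 86.4, 87.4 and 93.1 on control arrays 1, 2 and 3. The control arrays lay close together and every Math2 array was below them. The log2 difference was -0.73 (SE 0.36, 95% interval -1.53 to 0.066; limma adjusted p = 1.00, or 0.70 with the replicate block). All 6 signals were below the lowest array median, so the size of the difference is uncertain. Rab40c, whose protein carries a SOCS box that joins ubiquitin ligase complexes, gave 928, 1007 and 999 on the Math2 arrays 1, 2 and 3, against 720, 703 and 686 on control arrays 1, 2 and 3. Every Math2 array was above every control array, at signals well over the array medians. Its log2 difference was 0.47 (SE 0.23, 95% interval -0.042 to 0.98), or 1.39-fold, with a limma adjusted p of 1.00, or 0.64 with the replicate block.

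**Figure D1:**
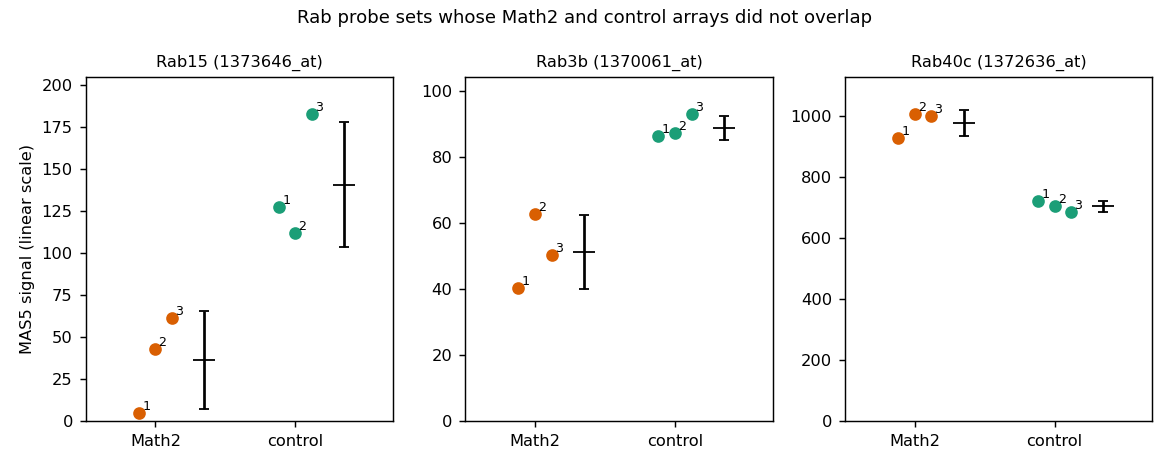
MAS5 signal (linear scale from 0) of the Rab15, Rab3b and Rab40c probe sets on each array, with Math2 arrays in orange and control arrays in green, array numbers beside the points, and mean ± SD (n = 3) in black. Rab15 and Rab3b are lower on all Math2 arrays and Rab40c is higher, at 928 to 1007 against 686 to 720.

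Over the whole family no member passed. Limma called 0 of 75 tested members, against 0% of all 18625 tested probe sets, and with the replicate block it called 0 of 75 members, against 0.0161% of all. At an unadjusted p under 0.05, 0 members were higher and 1 was lower (Rab15), where all tested probe sets gave 1.75% higher and 1.44% lower. With the block the counts were 2 higher (Rab28 and Rab40c) and 1 lower (Rab15), against 3.78% and 3.92% of all. Groups without overlap were found for 1 member on the higher and 2 on the lower side, which is 1.33% and 2.67% of members and compares with 3.7% and 4.3% of all tested probe sets. Both lower members, Rab15 and Rab3b, passed the filter only through their control signals, so their place in these counts gives no support of its own. A 2-fold difference without overlap was reached by 0 members on the higher side (0.37% of all) and by Rab15 on the lower side (0.328% of all).

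Differences in the family were mostly small. Of the 75 tested members, 39 were above and 36 below 0, with a median of 0.028 beside -0.031 for all tested probe sets, and with quantile normalization the family median was -0.014. A log2 difference under 0.5 in size was found for 72 members (96%), against 86.2% of all tested probe sets. The 95% interval of the difference lay wholly within 2-fold in both directions for 47 of the 75 members, so a 2-fold difference is outside the interval for those and inside it for the others. All 3 numbered pairs were lower in 11 members (14.7%) and higher in 6 (8%), against 15.2% and 13.1% of all.

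**Figure D2:**
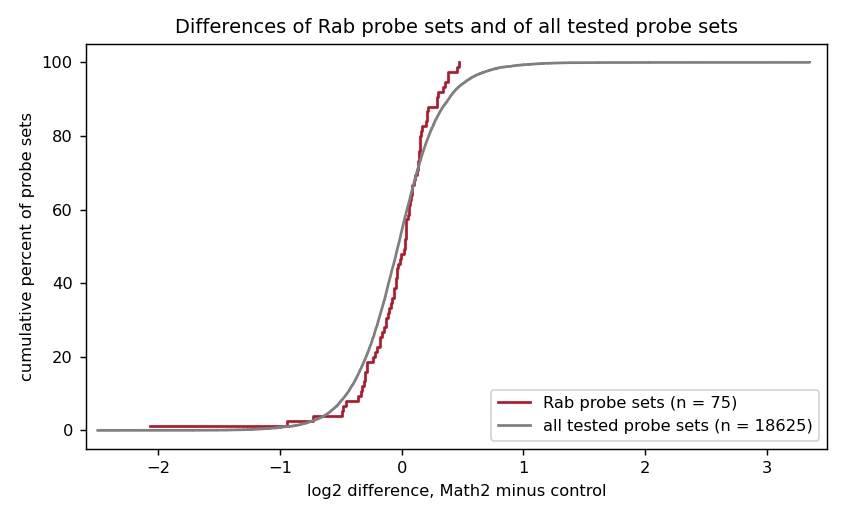
Cumulative percent of probe sets (y axis) by log2 difference, Math2 minus control (x axis), for the 75 tested Rab probe sets in red and all 18625 tested probe sets in grey. The Rab curve climbs within -0.5 to 0.5 for 96% of members, and the lone step at -2.07 is Rab15.

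By compartment, genes were represented by their probe set with the highest mean log2 signal. The endoplasmic reticulum and Golgi members had 7 of 10 tested genes above 0 and a median of 0.097. Rab1a, which acts in traffic from the endoplasmic reticulum to the Golgi, gave 15734, 11215 and 13952 on Math2 arrays 1, 2 and 3, against 11938, 11459 and 13185 on control arrays 1, 2 and 3. These ranges overlapped, and the log2 difference of 0.15 (SE 0.18) turned to -0.19 with quantile normalization. Rab30, a Golgi GTPase, gave 296, 379 and 444 on Math2 arrays 1, 2 and 3 and 213, 308 and 287 on control arrays 1, 2 and 3, a difference of 0.46 (SE 0.30) with overlap of the groups. Its second probe set gave 122, 87.8 and 300 on Math2 arrays 1, 2 and 3 and 150, 129 and 158 on control arrays 1, 2 and 3, at 0.031 (SE 0.44). Rab2a had 0.11 and Rab6a 0.062, which turned to -0.052 and -0.020 with quantile normalization, and Rab2b had 0.13, Rab18 0.17 and Rab33b 0.085. Rab1b had -0.046, or 0.0060 with quantile normalization, in 1392855_x_at, whose probes may be shared with other transcripts.

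Members of early and recycling endosomes had 6 of 14 genes above 0 and a median of -0.031, with Rab15 counted by its probe set 1397839_at, at 0.017. Rab5b, one of 3 related GTPases of the early endosome, gave 471, 648 and 752 on Math2 arrays 1, 2 and 3, against 860, 716 and 1032 on control arrays 1, 2 and 3. Math2 array 3 lay above control array 2, and the log2 difference was -0.48 (SE 0.28; limma adjusted p = 1.00, or 0.66 with the block). A dimmer Rab5b probe set, 1399153_at, gave 100, 19.7 and 73.8 on Math2 arrays 1, 2 and 3 and 79.4, 112 and 155 on control arrays 1, 2 and 3, a difference of -0.94 (SE 0.53), with Math2 array 1 inside the control range. The related Rab5a had -0.027 in its bright probe set (SE 0.24) and 0.38 in a dim one (SE 0.38), where Math2 signals of 103, 124 and 140 overlapped control signals of 58.5, 98.0 and 133. Rab5c had 0.29 (SE 0.49), with a control array 1 signal of 229 far below the 862 and 1071 of control arrays 2 and 3.

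For the recycling GTPases Rab11a, Rab11b and Rab4a the differences were 0.081, -0.061 and -0.30, and that of Rab11a turned to -0.015 with quantile normalization. Rab14, which acts between the trans-Golgi and endosomes, had 0.29 (SE 0.32). That value rests on Math2 array 1, at 14844 beside 6253 and 6136 on Math2 arrays 2 and 3 and 5830 to 8355 on the control arrays. Rab31, of the same route, gave 3225, 4829 and 3355 on Math2 arrays 1, 2 and 3 and 3829, 5004 and 4459 on control arrays 1, 2 and 3. It was lower in 3 of 3 pairs with overlap of the groups, a difference of -0.24 (SE 0.22). A dim second probe set of Rab31 gave 54.5, 148 and 59.99 on Math2 arrays 1, 2 and 3 and 43.3, 95.6 and 84.2 on control arrays 1, 2 and 3, at 0.15 (SE 0.47).

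Late endosome, lysosome and autophagy members had 3 of 6 genes above 0 and a median of 0.011. Rab7a, which governs maturation of late endosomes, gave 4893, 3942 and 6442 on Math2 arrays 1, 2 and 3, against 5100, 4513 and 5008 on control arrays 1, 2 and 3, a difference of 0.036 (SE 0.22) that turned to -0.029 with quantile normalization. The Math2 range enclosed the control range. Rab9a, which returns cargo to the trans-Golgi, had 0.16 and Rab34 had -0.20, with its dimmer probe set at -0.46 (SE 0.35) from Math2 signals of 67.7, 62.6 and 102 and control signals of 101, 107 and 113. For exocytosis and regulated secretion 5 of 9 genes were above 0 with a median of 0.10. Among them were Rab8a (0.10) and Rab8b (0.21), which carry post-Golgi vesicles to the plasma membrane, Rab10 (-0.15) and Rab13 (0.34), a GTPase of junctional traffic that overlapped widely between groups.

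In the remaining members, Rab28, linked to cilia, gave 8859, 7288 and 5613 on Math2 arrays 1, 2 and 3, against 7145, 5690 and 4272 on control arrays 1, 2 and 3. Within each numbered pair the Math2 array was higher by 0.31 to 0.39 on the log2 scale while the groups overlapped. The log2 difference was 0.35 (SE 0.24), or 0.22 with quantile normalization, and the limma adjusted p was 1.00, or 0.64 with the block. Rab12, which sends transferrin receptor to lysosomes, gave 4145, 5302 and 4939 on Math2 arrays 1, 2 and 3 and 3506, 4539 and 4475 on control arrays 1, 2 and 3. It too was higher in 3 of 3 pairs, by a mean of 0.20 (SE 0.20). Rab40b, a relative of Rab40c, had 0.38 (SE 0.41) from 220, 210 and 527 on Math2 arrays 1, 2 and 3 and 220, 166 and 299 on control arrays 1, 2 and 3, and was -0.045 without Math2 array 3. Rab23, an inhibitor of hedgehog signalling, had 0.14, and the lysosome-related organelle GTPases Rab32, Rab38 and Rab29 had -0.32, -0.11 and 0.055. Rab20, Rab21, Rab22a, Rab24, Rab35, Rab36, Rab4b and Rab7b lay between -0.064 and 0.13.

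**Figure D3:**
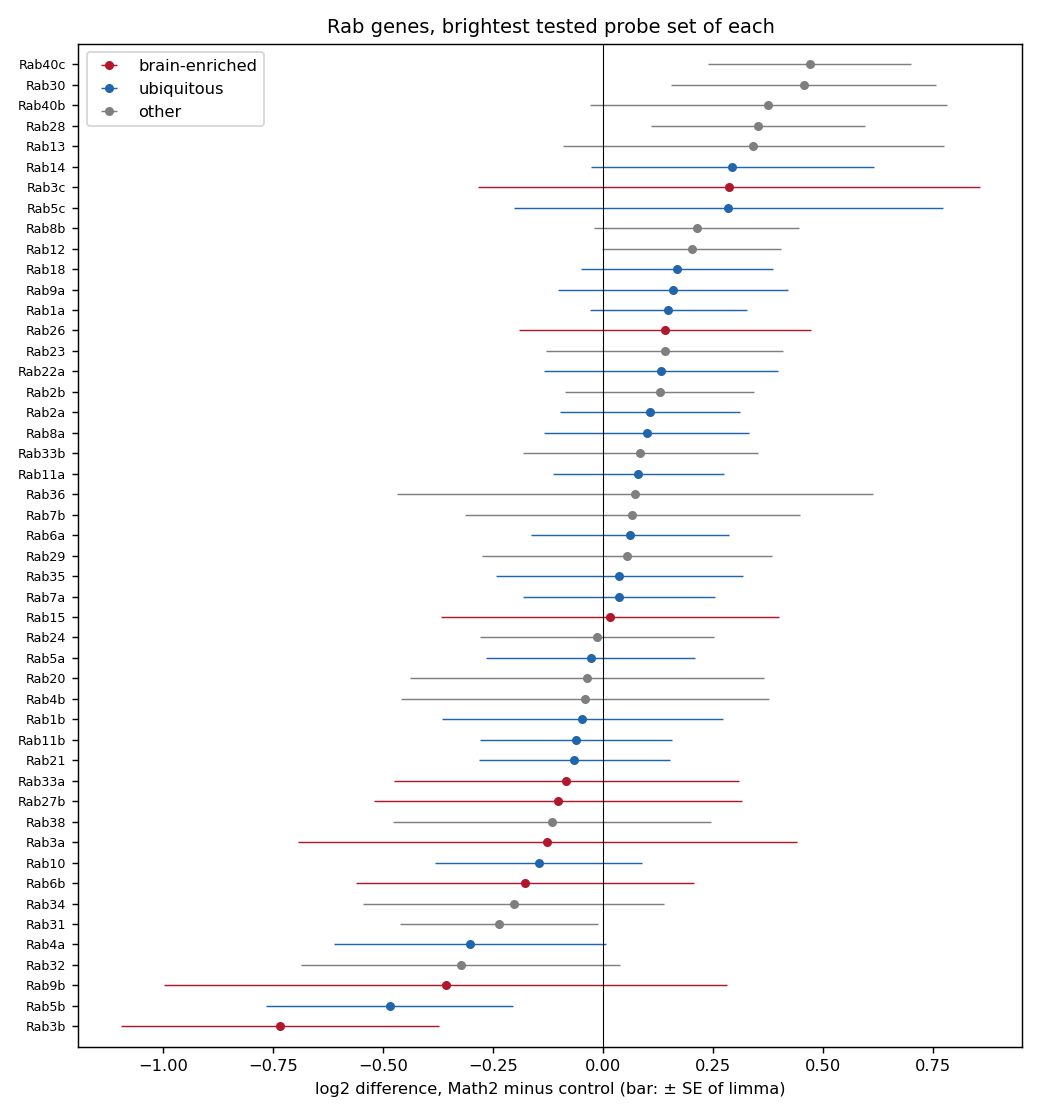
Log2 difference, Math2 minus control (x axis; bars ± SE of limma), for the brightest tested probe set of each of 48 Rab genes, with brain-enriched members in red, ubiquitous members in blue and other members in grey. Rab3b at -0.73 and Rab40c at 0.47 are the ends of the range, and no gene passed the adjusted threshold.

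Brain-enriched members (Rab3a, Rab3b, Rab3c, Rab6b, Rab9b, Rab15, Rab26, Rab27b and Rab33a) were set beside 19 ubiquitous ones. Rab39b, also counted as brain-enriched, was not analysed here. Of the 9 brain-enriched genes 3 were above 0, with a median log2 difference of -0.10, and of the 19 ubiquitous genes 12 were above 0, with a median of 0.062. Rab15 was represented by 1397839_at, its tested probe set with the higher mean log2 signal (6.28 against 6.15), and so counted as above 0. Its value was thus 0.017, not the -2.07 of 1373646_at. On the linear scale 1373646_at had the lower Math2 mean (36.3 against 71.1) and the higher control mean (141 against 72.8). The choice therefore depended on the low Math2 signals of 1373646_at. The median log2 signal of a list had an SD between arrays of a group of 0.25 for brain-enriched and 0.12 for ubiquitous genes. That SD describes signal level and is no measure of the spread of these median differences. As deviations of each gene from its own mean, list medians ran over the arrays from -0.45 to 0.59 for brain-enriched genes. For ubiquitous genes they ran from -0.087 to 0.11. The ubiquitous median was -0.020 with quantile normalization, and the brain-enriched median was -0.49 without Math2 array 3, -0.36 without control array 2 and 0.12 without Math2 array 1. The other 20 genes had 13 above 0 and a median of 0.079. All tested genes taken the same way had a median of -0.028.

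Signals of several brain-enriched members followed the array number more than the vector. Rab3a, which regulates synaptic vesicle release, gave 243, 334 and 1020 on Math2 arrays 1, 2 and 3, against 445, 254 and 954 on control arrays 1, 2 and 3. Array 3 was the highest of both groups, and the log2 difference between groups was -0.13 (SE 0.57). A second Rab3a probe set stayed at or under 79.1 on every array and was not tested. Rab9b gave 208, 90.3 and 720 on Math2 arrays 1, 2 and 3, against 309, 186 and 521 on control arrays 1, 2 and 3, a difference of -0.36 (SE 0.64). Rab33a, a GTPase of the Golgi and of axonal transport, gave 454, 483 and 1096 on Math2 arrays 1, 2 and 3, against 752, 437 and 871 on control arrays 1, 2 and 3, a difference of -0.083 (SE 0.39). In each, array 3 was again highest in both groups.

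Rab3c, a further vesicle GTPase of the Rab3 group, gave 65.6, 73.1 and 220 on Math2 arrays 1, 2 and 3, against 107, 35.7 and 142 on control arrays 1, 2 and 3, a difference of 0.29 (SE 0.57). The brighter probe set of Rab6b, the neuronal relative of the Golgi GTPase Rab6a, gave 307, 512 and 810 on Math2 arrays 1, 2 and 3, against 507, 444 and 824 on control arrays 1, 2 and 3, a difference of -0.18 (SE 0.38). Its other probe set gave 139, 239 and 242 on Math2 arrays 1, 2 and 3 and 187, 227 and 229 on control arrays 1, 2 and 3. For all of these probe sets the groups overlapped and number 3 was highest in each group.

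Rab26 and Rab27b, both tied to secretory vesicles, did not share this order. Rab26 gave 141, 171 and 105 on Math2 arrays 1, 2 and 3, against 121, 115 and 133 on control arrays 1, 2 and 3, a difference of 0.14 (SE 0.33). Rab27b gave 86.2, 151 and 80.8 on Math2 arrays 1, 2 and 3, against 65.1, 141 and 143 on control arrays 1, 2 and 3, a difference of -0.10 (SE 0.42). Its dimmer probe set gave 46.7, 92.3 and 40.9 on Math2 arrays 1, 2 and 3, against 61.1, 87.6 and 68.5 on control arrays 1, 2 and 3, a difference of -0.31 (SE 0.41). The groups overlapped in all 3 of these probe sets.

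Array 3 was the highest of its group in both groups for 5 of the 9 brain-enriched genes, 4 of the 19 ubiquitous genes and 1 of the other 20 genes. Over all members that held for 18 of 75 probe sets, or 24%, against 14.8% of all tested probe sets. Rab15 was counted among the 9 genes by 1397839_at, which did not have this order, while its probe set 1373646_at had it. The median deviation of the brain-enriched genes from their own mean was 0.59 on Math2 array 3 and 0.44 on control array 3, and it lay between -0.45 and 0.17 on the other arrays. For the ubiquitous genes it lay between -0.087 and 0.11 on all 6. Within a group, the highest signal of a gene was 2.42 times the lowest at the median of brain-enriched genes in Math2 arrays and 1.99 times in control arrays, against 1.42 and 1.43 times for ubiquitous genes.

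Neuronal markers moved with the brain-enriched members. Array 3 was highest in both groups for 8 of 10 tested pan-neuronal markers, and their signals summed over 12 genes were 18745, 16187 and 35971 on Math2 arrays 1, 2 and 3, against 21597, 15908 and 28773 on control arrays 1, 2 and 3. The astrocyte marker sum over 9 genes, led by the bright Slc1a3 and Gja1, was lowest on array 3 in both groups. It was 24199 among Math2 arrays of up to 39254 and 27130 among control arrays of up to 35451. Slc1a3, Gja1, Fgfr3 and Aqp4 were each lowest on array 3 in both groups. Gfap, Aldh1l1, S100b and Aldoc were so among Math2 arrays only. Among control arrays Aldoc was highest on array 3, at 596. Fewer neurons and less neuronal RNA per cell cannot be told apart in such bulk samples, and the part of cell makeup in the Rab values was not tested. Oligodendrocyte lineage markers summed to 8956 to 12586 on Math2 arrays and 8306 to 13310 on control arrays, where Olig1 gave 5683, 9061 and 7632 on Math2 arrays 1, 2 and 3 and 6938, 5421 and 8543 on control arrays 1, 2 and 3, and Mog stayed at or below 50.7. Microglia and macrophage markers summed to 286 to 362 on Math2 arrays and 350 to 493 on control arrays, and endothelial and mural markers to 751 to 948 and 432 to 747. In these lists 2 of 8, 5 of 8 and 4 of 7 genes on the array stayed below every array median.

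**Figure D4:**
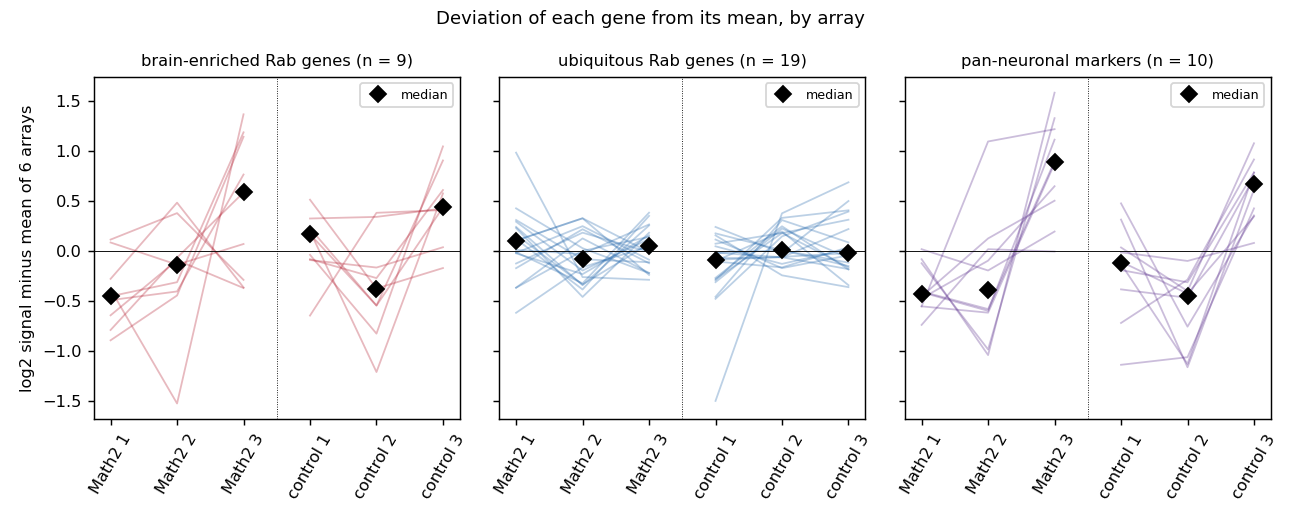
Log2 signal of each gene minus its mean over 6 arrays (y axis) by array (x axis, Math2 arrays left of control arrays), for 9 brain-enriched Rab genes, 19 ubiquitous Rab genes and 10 pan-neuronal markers. Thin lines are genes and black diamonds are medians, which reach 0.59 and 0.44 on array 3 of the Math2 and control groups for brain-enriched Rab genes and stay within -0.087 to 0.11 for ubiquitous ones.

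A second order among the arrays ran through other members. The lowest control signal was on control array 1 and the highest Math2 signal on Math2 array 2 for 27 of 75 member probe sets (36%). That compares with 23.3% of all tested probe sets. By gene, it held for 2 of the 9 brain-enriched, 6 of the 19 ubiquitous and 10 of the other 20 genes. Rab4b, of recycling endosomes, was one, at 139, 344 and 245 on Math2 arrays 1, 2 and 3 and 142, 297 and 301 on control arrays 1, 2 and 3. Control array 1 also had the highest ratio of 3′ to 5′ Gapdh signal, which is raised where labelled transcripts are short, at 13.8, against 3.74 and 5.04 on control arrays 2 and 3. Math2 array 2 had the lowest ratio of its group, at 6.0, against 8.48 and 8.14 on Math2 arrays 1 and 3. The same ratio for actin was likewise highest on control array 1, at 22.7, but among Math2 arrays it was 14.3, 17.1 and 18.4 on arrays 1, 2 and 3, with the lowest on array 1. The part of transcript completeness in these signals was not tested, nor was that of the 2 labelling cycles in the ratios.

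Probe sets of one gene often disagreed. Of 21 Rab genes with several tested probe sets, 9 had all differences on one side of 0 (4 higher, 5 lower) and 12 had them on both sides. Rab7a is an example among bright genes. Its brighter probe set is given above, and the other, 1398838_at, gave 308, 692 and 338 on Math2 arrays 1, 2 and 3 and 264, 637 and 781 on control arrays 1, 2 and 3, with the order of arrays just described and a difference of -0.28 (SE 0.44). The 4 tested Rab1b probe sets ran from -0.18 to 0.21, with 1 above and 3 below 0. The one that stood for the gene, 1392855_x_at, carries the suffix that marks probes shared with other transcripts. Rab15 had the widest gap of the 21 genes, -2.07 against 0.017.

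**Figure D5:**
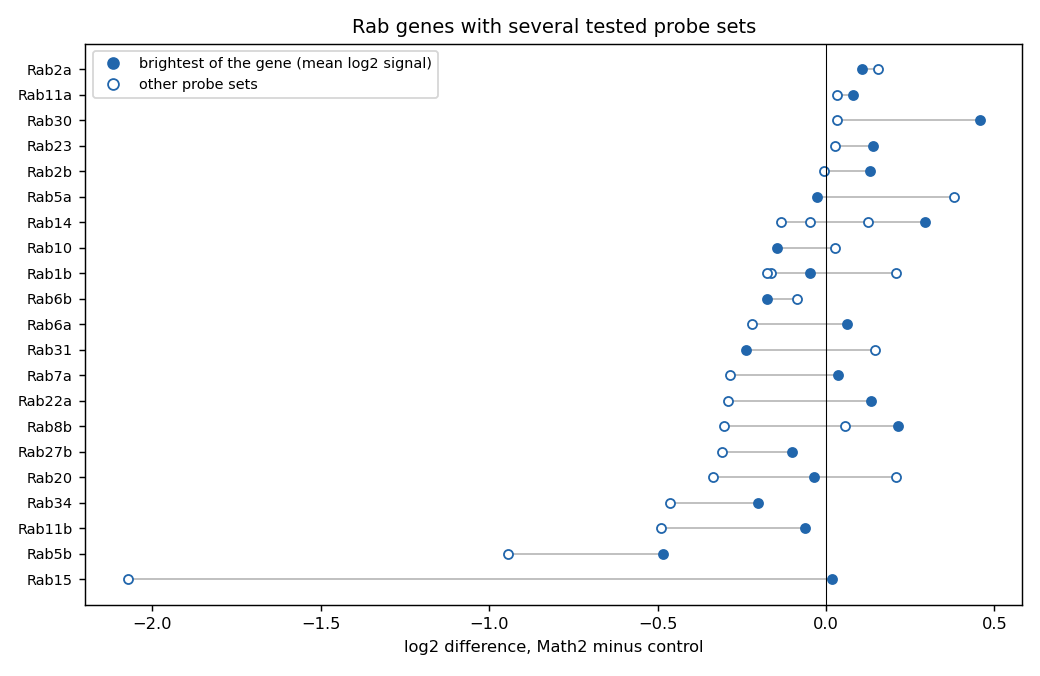
Log2 difference, Math2 minus control (x axis), of every tested probe set of the 21 Rab genes that have several, with the brightest of each gene filled and the others open. In 12 genes the points fall on both sides of 0, and Rab15 spans -2.07 to 0.017.

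Untested members were 22 probe sets with signals of 1.5 to 123 and a median of 24.7, among them all those of Rab3d, Rab17, Rab19, Rab25, Rab27a, Rab37, Rab39a and Rab43. Their differences ran from -1.03 (Rab43) to 1.13 (a Rab5b probe set), 18 above and 4 below 0, at signals where the sizes cannot be read. Groups without overlap were found in 1 of them, a Rab14 probe set that was higher in Math2 arrays, which is 4.55% of the 22, against 6.4% of all 12417 probe sets below the filter.

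Proteins that act on or for Rab GTPases gave no call either. Of 28 listed regulators 22 were tested, 9 above and 13 below 0, with a median of -0.12 and 0 called. The GDP dissociation inhibitor Gdi2 gave 20926, 13709 and 13468 on Math2 arrays 1, 2 and 3, against 12424, 10594 and 10725 on control arrays 1, 2 and 3. All Math2 signals were higher, and the log2 difference of 0.48 (SE 0.20) was 0.14 with quantile normalization. The GTPase-activating protein gene Tbc1d1 had -0.48 (SE 0.22) and Rab3gap1, a subunit of the complex that acts on Rab3 and Rab18, had -0.41 (SE 0.21), both without overlap of the groups. Tbc1d15 had 0.33. Of 30 listed effectors 19 were tested, 4 above and 15 below 0, with a median of -0.14 and 0 called. The dynein adaptor Bicd2, which binds Rab6, gave 1175, 1564 and 1388 on Math2 arrays 1, 2 and 3, against 1786, 1854 and 1820 on control arrays 1, 2 and 3, a difference of -0.41 (SE 0.22) without overlap. Optn, an effector of Rab8, had -0.44 without overlap, Mlph, an effector of Rab27, had -0.52, and Appl2, an effector of Rab5, had -0.27. For all of these the limma adjusted p was 1.00, and with the replicate block it was 0.466 or above. All tested genes taken the same way had 4767 of 10417 above 0 and a median of -0.028. No overlap was found for 1 regulator on the higher and 3 on the lower side, the third being Rabggta. Among effectors it was found for 0 on the higher and 2 on the lower side. Over all 10417 genes the counts were 388 higher and 468 lower.

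The genes outside the family whose log2 signals were most like the Rab15 probe set 1373646_at over the 6 arrays, among 13678 tested single-symbol probe sets, were Agrn, Dock5, Paqr4, Trim9 and Edn1, with Pearson correlations of 0.983 to 0.990. The highest values among so many candidates over 6 arrays are a description only. All 5 were below 0 in the comparison, with log2 differences of -0.45 for Agrn to -1.40 for Trim9, and none passed (limma adjusted p = 1.00).

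The array probe set for Neurod6, the gene of Math2, gave 312, 167 and 1546 on Math2 arrays 1, 2 and 3, against 386, 207 and 973 on control arrays 1, 2 and 3. The groups overlapped, at 0.021 on the log2 scale (SE 0.75), so the probe set shows no excess that would check the labels. Whether its probes lie within the transfected sequence is not given in the labels. Other marker lists described the arrays as follows. Median log2 differences of tested genes were 0.065 for pan-neuronal (10 genes), 0.78 for excitatory neuron (5), -0.086 for inhibitory neuron (6), -0.045 for astrocyte (8), -0.023 for oligodendrocyte lineage (5), 0.028 for microglia and macrophage (2), -0.35 for fibroblast and meningeal (6) and 0.34 for endothelial and mural markers (4), with 0 genes called. Hybridization spike-ins had geometric means of 6773, 4044 and 3875 on Math2 arrays 1, 2 and 3, against 2476, 1893 and 2566 on control arrays 1, 2 and 3, so Math2 arrays were brighter there, and their part in the Rab values was not tested.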

How the data were processed

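The deposited values are linear intensity measurements, 1 for each probe set of an array. Per the submitters' processing notes these are MAS5 signals, with no version or settings named there. The trimmed mean without the top and bottom 2% was 500.17 on average over arrays, and no further scaling was applied. The 57 control probe sets stayed out of the tests. The deposited intensity was transformed to log2(signal + 7.42), the constant being the 10th percentile of positive values, and probe sets at or above the 40th percentile of mean log2 value were tested with limma 3.58.1 in R 4.3.3 (eBayes with trend, two-sided, Benjamini-Hochberg adjustment over all 18625, threshold 0.05). Single values also had an exact two-sided permutation test. The number of arrays limits the precision, and no detection calls were used.

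Gene symbols are those of the platform annotation. All 56 Rab genes matched RefSeq by gene number and 0 symbols changed. The array names no build, so coordinates are given only for the RefSeq windows. The probe sets named with a value on every array were the 6 with the smallest p in each direction, all tested brain-enriched ones and any with a 2-fold difference without overlap. The members, lists, tests and this rule were chosen with earlier results of these data known. The printed promoter windows, the orders of arrays and the further members given by array, as examples of a compartment, were chosen after the values were seen.

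For Math2 and control arrays numbered alike, each array's departure from its group mean correlated over probe sets with r of 0.326, 0.476 and 0.372. All were over 0.1, so the numbers were treated as pairs, a reading that rests on the data and not the labels. Math2 array 3 with control array 1 was just over that limit too, at 0.104. The other combinations of unlike numbers lay at -0.040 or below. Departures within a group sum to 0, so higher values for like numbers lower those for unlike ones, which are no separate support for pairs. The planned fit has no block, and the value with the replicate block stands beside it. Alternatives were quantile normalization, median centring, constants of 1 and 32, no filter, a filter at the 60th percentile, the block, no trend, leaving out each array or numbered pair, and averaging all probe sets of a gene.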

Additional observations from a re-analysis of the deposited data

How the results depend on the processing

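The count of Rab probe sets called was 0 in all settings except the replicate block without numbered pair 2, where it was 1 (0 to 1 over the settings that leave out arrays). That 1 was Rab15 1373646_at, with a log2 difference of -2.49 (limma adjusted p = 0.00931). That fit holds 2 pairs, and it called 111 of all 18625 tested probe sets, the most of any setting. The same probe set failed the filter in 6 of 18 alternatives and its difference ranged from -2.57 to -1.30 in the others. Over all probe sets the count called was 0 without the block, 3 with the replicate block, 5 with quantile normalization and the replicate block, and 0 to 111 over settings that leave out arrays. No Rab regulator or effector was called in any setting. The median of the brain-enriched genes ran from -0.49 to 0.12 with arrays left out. Medians of all Rab probe sets and of ubiquitous genes ran, with arrays left out, from -0.050 to 0.081 and from -0.044 to 0.16. Of 377 values of named probe sets under alternatives, 35 changed sign, 33 of them with arrays left out. The other 2 were Rab15 1397839_at, at -0.023 with quantile normalization, without and with the replicate block. Over all 75 tested members, named by this rule or not, 10 changed sign with quantile normalization. The largest shift of any member was 0.34. With arrays left out the log2 differences of the named probe sets that changed sign ran as follows. Single arrays without the block come first, then numbered pairs with it. Rab15 1397839_at ran from -0.17 to 0.28, and from -0.095 to -0.094 with the replicate block. Rab26 1369004_at ran from -0.015 to 0.32, and from -0.061 to 0.38 with the replicate block. Rab27b 1370122_at ran from -0.45 to 0.079, and from -0.34 to 0.23 with the replicate block. Rab33a 1392092_at ran from -0.49 to 0.14, and from -0.29 to 0.24 with the replicate block. Rab3a 1391434_at ran from -0.73 to 0.37, and from -0.38 to 0.24 with the replicate block. Rab3c 1387147_at ran from -0.25 to 0.65, and from -0.020 to 0.76 with the replicate block. Rab40b 1383826_at ran from -0.045 to 0.60, and from 0.16 to 0.57 with the replicate block. Rab6b 1388632_at ran from -0.52 to 0.17, and from -0.37 to 0.090 with the replicate block. Rab6b 1392478_at ran from -0.22 to 0.17, and from -0.17 to 0.075 with the replicate block. Rab9b 1383483_at ran from -1.13 to 0.32, and from -0.77 to -0.045 with the replicate block. The cause was not tested. With 3 arrays a group, the 95% interval excluded a 2-fold difference for 47 of 75 members, and signals near the array medians set no firm size.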
